A study of Mus musculus with 123 samples.

Results

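The cells described here are αMHC-GFP+ single cells from mouse hearts at embryonic day 9.5 (E9.5), separated by their level of Myl2, the gene of ventricular regulatory myosin light chain. Of 123 cells in the study, 42 were labelled E9.5, and 39 of these held 1000 CPM (counts per 1000000 of the cell's total) or more of the cardiac sarcomere genes Ttn, Actc1, Myh6 and Tnnt2 together. A cell was called Myl2-high at 100 CPM of Myl2 or more (28 cells) and Myl2-low below it (11 cells). The groups were chosen by the measured CPM of Myl2 and of the 4 sarcomere genes in these cells, so the difference in Myl2 itself is a description. The 3 remaining E9.5 cells held 4.35 to 176 CPM of the 4 sarcomere genes and were set aside.

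All cells came from the strain labelled aMHC-GFP, in which the αMHC (Myh6) promoter drives GFP, and were captured, with no treatment in the labels, on the Fluidigm C1 microfluidic system. The same split was applied to the 29 E12.5 cells and to 40 of the 52 cells of postnatal day 1 (P1). Because GFP follows the αMHC promoter, the sort selected for a working cardiomyocyte gene. No label ties a cell to an animal, so the cells of a time point were treated as 1 sample and the groups were compared without a test. Ratios were instead read separately in the naming sets that the cell titles form at E9.5, which begin with C (11 of the 39 cells) or with N530 (28 cells).

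At E9.5 the looped heart tube is building chambers: working ventricular and atrial myocardium expands along its outer curvature, while the inflow, the atrioventricular canal and the outflow tract keep a more primary character. Myl2 is among the earliest genes restricted to ventricular myocardium. Irx4 and Hey2 encode transcription factors of ventricular identity, Nr2f2 encodes COUP-TFII, a nuclear receptor that sustains atrial identity, and Tbx5 encodes a T-box factor of the inflow, the atria and the left ventricle. Myl7, the atrial light chain of the adult, is expressed along the whole early tube. In the GRCm38 build these genes lie at chr5:122100951-122113472 on the plus strand (Myl2), chr13:73260479-73269608 on the plus strand (Irx4), chr10:30832359-30842801 on the minus strand (Hey2), chr7:70351944-70366735 on the minus strand (Nr2f2) and chr5:119832668-119885219 on the plus strand (Tbx5).

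Over all E9.5 cells Myl2 formed a gradient with no gap at the limit, which came from set N530, while set C had no cell between 3.4 and 108 CPM. In set C the 8 Myl2-high cells held 2567, 2069, 1901, 1435, 371, 314, 193 and 108 CPM, and the 3 Myl2-low cells held 3.4, 0 and 0 CPM. In set N530 the 20 Myl2-high cells ran from 149 to 2695 CPM, and the 8 Myl2-low cells held 99.9, 91.2, 41.3, 36.9, 33.5, 19.4, 12.9 and 4.9 CPM. The 3 cells just inside the limit were at 156, 149 and 108 CPM, and the 3 just outside it at 99.9, 91.2 and 41.3 CPM. The Myl2-low cells of set N530 were cells with little Myl2, and 2 of the 3 in set C had no count of it.

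This gradient was not seen later. At E9.5, 19 of 39 cells (48.7%) had Myl2 between 10 and 600 CPM, whereas 0 of 29 cells at E12.5 and 0 of 40 cells at P1 did. This window lies inside the gap between the groups at both later times, so the counts of 0 restate that gap. At E12.5 the lowest of 22 Myl2-high cells held 645 CPM and the highest of 7 Myl2-low cells held 6.6 CPM. At P1 the lowest of 37 Myl2-high cells held 826 CPM and the highest of 3 Myl2-low cells held 6.7 CPM. The Myl2-high cells had a median Myl2 of 820 CPM in the E9.5 group, which was 3361 CPM for the E12.5 cells and 7293 CPM for those of P1. Titles of set C occur at all 3 times, but the shared first letter does not show that these cells were captured together. Within set C, Myl2 lay between 10 and 600 CPM in 4 of 11 cells for E9.5, in 0 of 20 for E12.5 and in 0 of 40 for P1. The labels name no chip or day of capture, and the part of the capture in this was not tested.

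**Figure D1:**
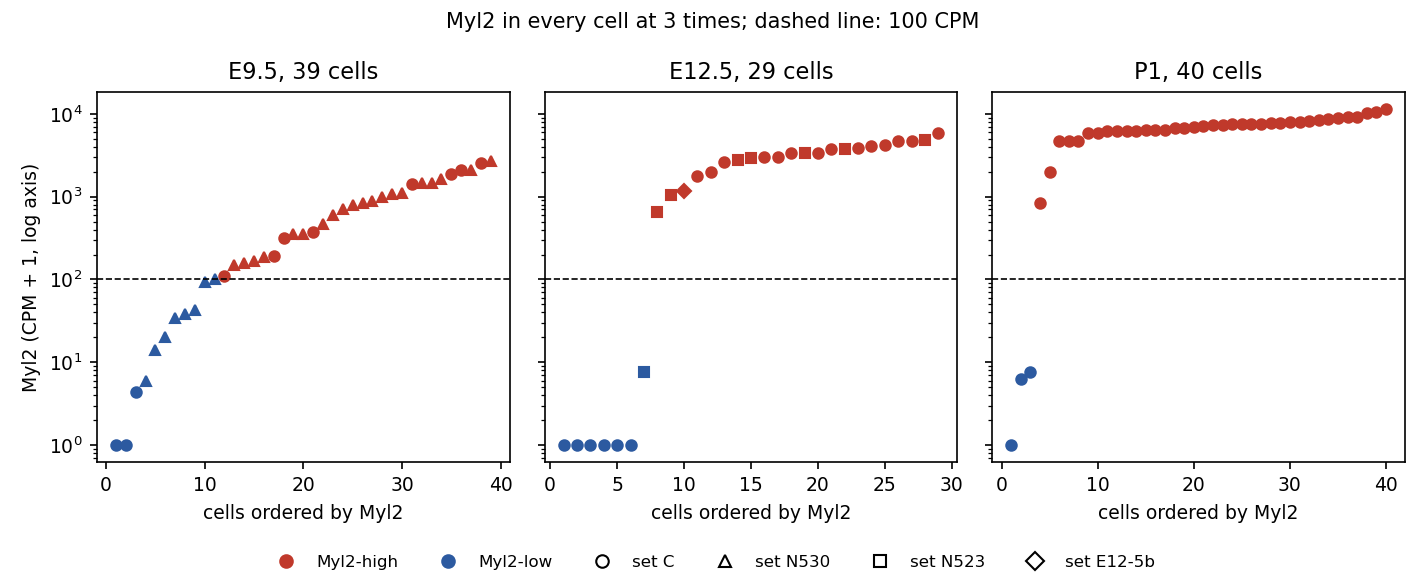
Myl2 in every cell at E9.5, E12.5 and P1, with the cells ordered by Myl2 on the horizontal axis and Myl2 in CPM + 1 on a log axis; colour gives the group, the symbol gives the naming set, and the dashed line is the limit of 100 CPM. The E9.5 cells pass through the limit, with 99.9 CPM just below and 108 CPM just above it, while no cell lies between 10 and 600 CPM at E12.5 or P1.

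The groups were alike in depth and in genes found. Total counts ran from 281940 to 6351742 (median 2669902) in the Myl2-high cells and from 268301 to 4650710 (median 2520869) in the Myl2-low cells. The median number of genes found, at 1 count or more, was 4503 and 4482. The 4 sarcomere genes of the rule summed to a median of 45749 CPM in Myl2-high and 48100 CPM in Myl2-low cells. One Myl2-low cell of set N530 stood apart with 1564 CPM of them, next to at least 15813 CPM in each of the other 38 cells. The sets themselves differed: the cells of set C had 268301 to 588443 counts and those of set N530 had 1437114 to 6351742. Actb, a cytoskeletal actin gene, was at 8135 to 33810 CPM in the 3 Myl2-low cells of set C and at 3770 to 14184 CPM in its 8 Myl2-high cells. In set N530 it was at 841 to 29795 CPM (median 3272) in the 8 Myl2-low cells and at 1038 to 6087 CPM (median 2913) in the 20 Myl2-high cells, and the part of this in the comparisons was not tested.

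Across the genome the ratios of the 2 naming sets were unrelated. For each of 7770 genes with a mean of 10 CPM or more and found in 5 or more cells, the ratio of mean CPM in Myl2-high to Myl2-low cells was taken on the log2 scale with 1 CPM added. A gene was called where this ratio was 2-fold or more and had the same sign in both naming sets. By this rule 1808 genes (23.3%) were called higher and 676 genes (8.7%) lower in Myl2-high cells. These shares are the background for every list below, since 3 or 8 cells in a group let 1 cell set a mean. The median log2 ratio of all genes tested was 0.20. Between the sets, which share no cell, the ratios had a Pearson r of -0.02 and a Spearman rho of -0.01 across genes, and 49.9% of the genes had the same sign in both. Of the genes that differed by 2-fold or more within each set, 1289 were higher in both, 368 were lower in both and 1453 had opposite signs. Of the 75 called genes that are named or on a list, 29 kept a ratio of 2-fold or more under all 13 alternative settings that used both sets, among them Cited1, Tbx18, Tbx3, Gata6, Acta1, Trdn, Mcm5, Lin28a and Lin28b. The 75 include the 12 genes in each direction taken below for the largest ratios, a choice that favours keeping 2-fold. The share over all called genes was not computed.

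Cell-to-cell overlap gives a stricter view. For each gene the share of Myl2-high and Myl2-low cell pairs in which the Myl2-high cell had the larger value was taken, with ties counted as 50%, and its median over all genes was 51.9%. A share of 70% or more was reached by 99 of the genes called higher, and 49 of the genes called lower had a share of 30% or less. Of all 7770 genes tested, 123 had a share of 70% or more and 71 a share of 30% or less. No gene other than Myl2, for which the rule fixes it, had groups without overlap.

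**Figure D2:**
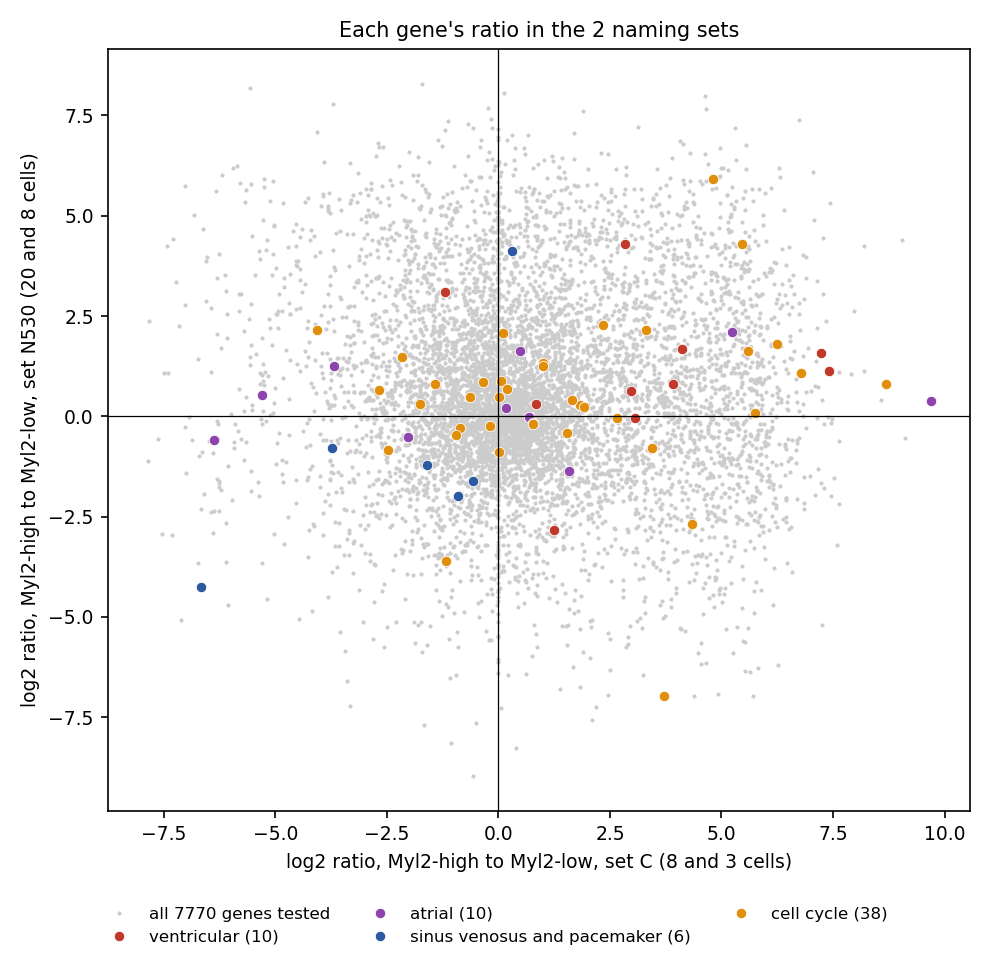
The log2 ratio of mean CPM in Myl2-high to Myl2-low cells in set C (horizontal axis) and in set N530 (vertical axis) for the 7770 genes tested (grey) and for the tested genes of 4 lists (colours, Myl2 left out). The grey cloud has no slope (Pearson r of -0.02), while 5 of the 6 sinus venosus and pacemaker genes lie in the lower left quadrant.

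The ventricular genes leaned toward the Myl2-high cells. Of 12 genes on the ventricular list, 10 besides Myl2 were tested. Called higher were 5 of these (Hey2, Mpped2, Pln, Irx1 and Cited1), none was called lower, and the median log2 ratio of the 10 was 1.15 beside 0.20 over all genes. Irx1 had no count in Myl2-low cells and passed the filter through the Myl2-high cells alone. It could only be called higher and is no support for the lean. The summed level of the list without Myl2 was 1114 to 11445 CPM (median 3518) in Myl2-high cells and 14.9 to 5342 CPM (median 1853) in Myl2-low cells. Myl3 made up most of it, with means of 3179 of 4064 CPM in Myl2-high and 1743 of 2164 CPM in Myl2-low cells. The sum is thus largely a reading of Myl3. The log2 ratio of the mean sums was 0.91; it was 2.91 within C and 0.62 within N530. It was 0.73 with counts pooled over cells, 0.75 with TMM factors and 0.79 at 10000 CPM of the 4 sarcomere genes, and 1.25 with all E9.5 cells, 1.77 as the mean of the 2 sets and 1.91 as a difference of mean log2 values. The Myl2-high cell had the larger sum in 73.7% of pairs. In set C the groups did not overlap: the 8 Myl2-high cells summed to 1700 to 5540 CPM and the 3 Myl2-low cells to 14.9 to 953 CPM. In set N530 they did, with 1114 to 11445 CPM against 150 to 5342 CPM.

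Mpped2, a metallophosphoesterase gene, was found in 27 of 28 Myl2-high cells, where it ran from 0 to 1069 CPM (median 156), and in 6 of 11 Myl2-low cells, from 0 to 915 CPM (median 1.98). Its mean was 2.72-fold higher in Myl2-high cells, and they had the larger value in 77.8% of pairs. Pln, which encodes phospholamban, the inhibitor of the sarcoplasmic reticulum calcium pump, ran from 0 to 1412 CPM (median 37.2) in Myl2-high cells and from 0 to 314 CPM (median 0) in Myl2-low cells. It was found in 21 of 28 and in 4 of 11 cells, with a mean log2 ratio of 2.42. With counts pooled over cells, which weights the deeper cells, the log2 ratio was 0.62 for Mpped2 and 0.66 for Pln, both under 2-fold. Both genes thus overlapped between the groups, and both were among the 10 genes whose level followed Myl2 most closely over the 39 cells. Since Myl2 set the groups in these same cells, this restates the ratio and adds no separate support.

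Myl3, the ventricular essential light chain, did not reach 2-fold. It ran from 542 to 8163 CPM (median 2773) in Myl2-high cells and from 0 to 4704 CPM (median 931) in Myl2-low cells, a mean ratio of 1.82. Within set C the Myl2-low cells held 496, 397 and 0 CPM, below all 8 Myl2-high cells at 1525 to 3157 CPM. Within set N530 the low cells reached 4704 CPM and the Myl2-high cell had the larger value in 63.8% of pairs. Lbh, also on the ventricular list, went the other way in set N530, with a log2 ratio of -2.83 there and 1.24 in set C.

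The ventricular transcription factors were sparse. Irx4 was found in 14 of 28 Myl2-high cells (50%, exact 95% binomial interval 30.6 to 69.4%) and in 3 of 11 Myl2-low cells (27.3%, 6.02 to 61%). Its mean was 25.9 and 20.0 CPM, and the mean of the low cells rested on 1 cell at 211 CPM, with 6.8 and 1.6 CPM in the other 2 that had any. Hey2 was found in 10 of 28 Myl2-high cells and 3 of 11 Myl2-low cells, with means of 52.6 and 14.9 CPM. Its highest value, 865 CPM, was in a cell with 164 CPM of Myl2, so that with the Myl2 limit at 200 CPM its log2 ratio turned from 1.76 to -1.10, and without that cell it was 0.57. Either factor at 10 CPM or more marked 16 of 28 Myl2-high cells (57.1%, 37.2 to 75.5%) and 2 of 11 Myl2-low cells (18.2%, 2.3 to 51.8%). Irx1, a further Iroquois gene, was found in 8 of 28 Myl2-high cells at up to 333 CPM and in 0 of 11 Myl2-low cells, which allows a share of up to 3 of 11 cells (27.3%). With the limit at 200 CPM its log2 ratio turned from 4.01 to -2.01. These intervals cover the counting of cells only.

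Myh7, the slow myosin heavy chain of the embryonic ventricle, showed how unlike the naming sets were. In set C it was at 73.9, 33.5 and 32.3 CPM in the Myl2-low cells and at 97.9 to 3473 CPM in the Myl2-high cells, with no overlap. In set N530 the Myl2-low cells held 198, 903, 940, 2295, 2714, 3501, 7860 and 8512 CPM. The lowest 3 of these lay below all Myl2-high cells of the set, at 1075 to 14392 CPM, and the other 5 within their range, with the Myl2-high cell larger in 71.9% of pairs. At 1000 CPM or more of Myh7 there were 20 of 20 Myl2-high cells and 5 of 8 Myl2-low cells in set N530, but 4 of 8 and 0 of 3 in set C. Over the cells of a set, Myh7 followed Myl2 with a Spearman rho of 0.87 within C (11 cells) and 0.19 within N530 (28 cells), a description over cells, for which the labels give no animal or chip.

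Within set C the Myl2-high cells themselves could be parted into 2 kinds of 4 cells each, a reading made after their values were seen. The 4 cells with Myl2 from 1435 to 2567 CPM had Myh7 at 1999 to 3473 CPM, Nppa at 836 to 2597 CPM and Nr2f2 at 0. The 4 cells with Myl2 from 108 to 371 CPM had Myh7 at 97.9 to 586 CPM, Nppa at 0 in 3 cells and at 153 CPM in 1, and Nr2f2 at 428, 418, 9.7 and 439 CPM. This split was not seen in set N530. There all 20 Myl2-high cells had 1000 CPM or more of Myh7 and at least 1 count of Nppa. Nppa encodes atrial natriuretic peptide, a marker of expanding chamber myocardium in the embryo. It was at 0 in all 3 Myl2-low cells of set C, yet found in all 8 of set N530, at 18.6 to 4797 CPM. Its mean over all cells was 1857 CPM in Myl2-high and 1276 CPM in Myl2-low cells, a log2 ratio of 0.54 that rested on 1 Myl2-high cell at 22267 CPM and was -0.21 without it.

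**Figure D3:**
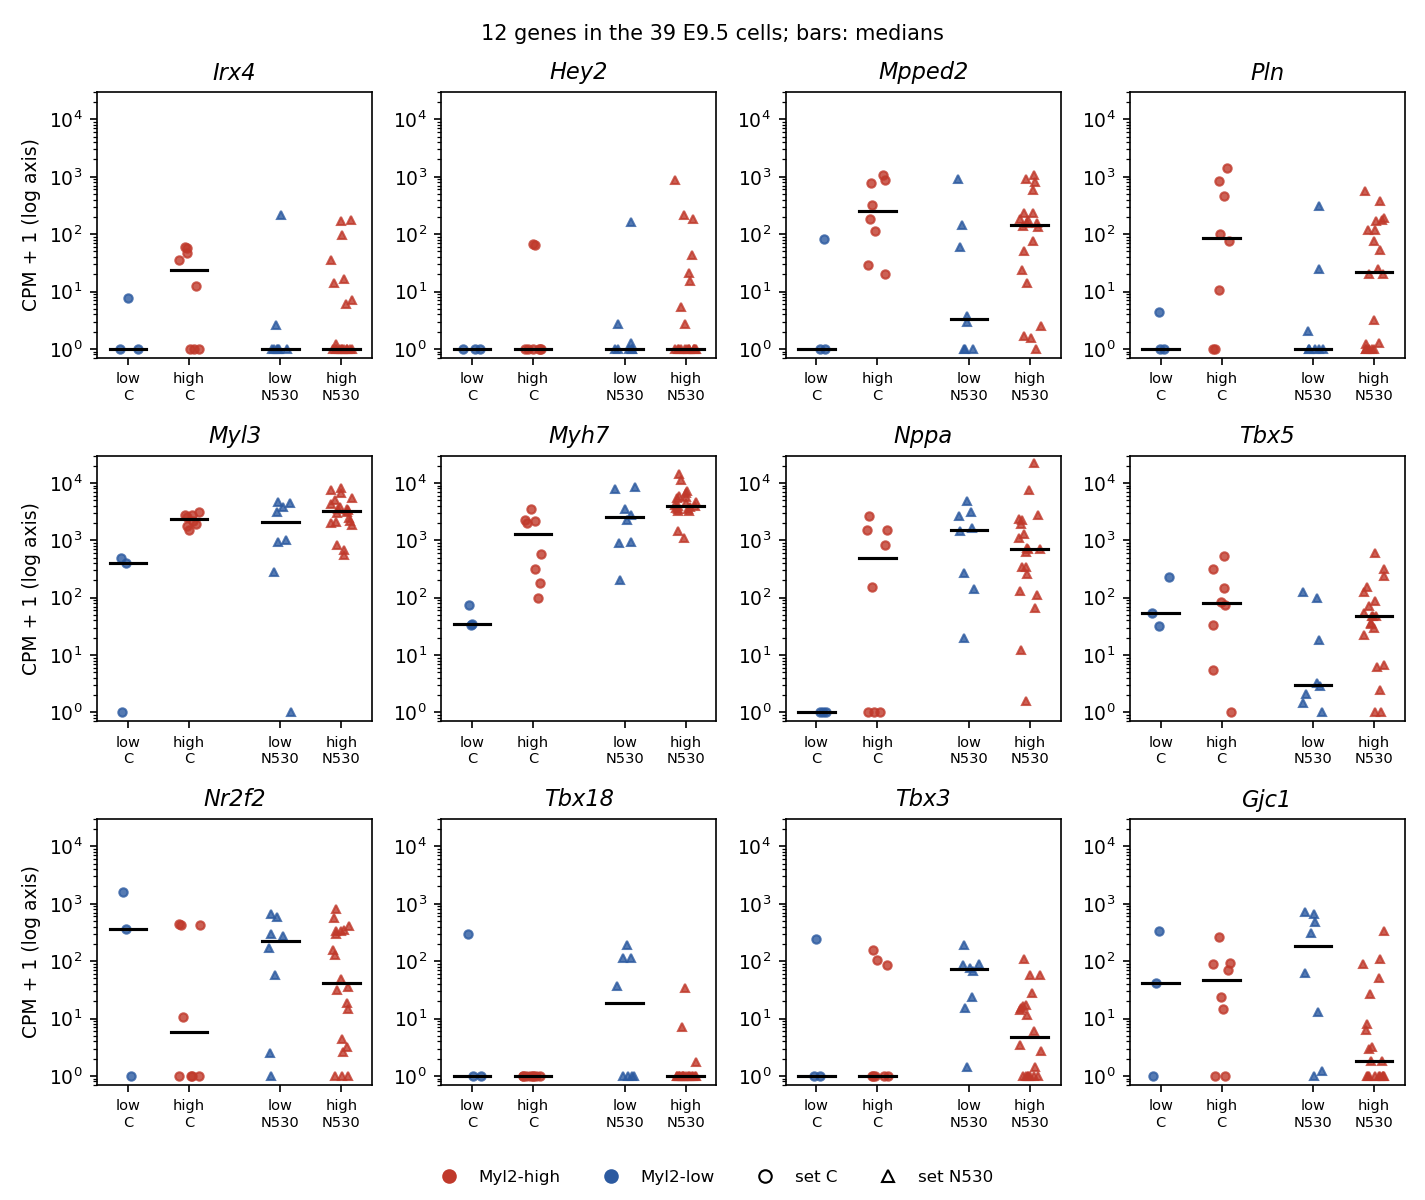
CPM + 1 on a log axis for 12 genes in the Myl2-low and Myl2-high cells of sets C and N530 (3, 8, 8 and 20 cells from left to right); each point is a cell and each bar a median. Myl3 and Myh7 separate the groups in set C and overlap in set N530, and Tbx18 is at 0 in all but 3 of the 28 Myl2-high cells.

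The atrial genes did not lean toward the Myl2-low cells as a list. Of 12 genes, 10 were tested, with 2 called higher (Tbx5, Kcnj5), 2 called lower (Nr2f2, Stard10) and a median log2 ratio of -0.27. The summed level was 4927 to 47166 CPM (median 13408) in Myl2-high cells and 2113 to 37687 CPM (median 11185) in Myl2-low cells. Myl7 made up most of it. It was found in all 39 cells, at 2513 to 28056 CPM (median 8308) and at 878 to 26207 CPM (median 6774). Myl4, the atrial and fetal essential light chain, was likewise in every cell, with means of 2820 and 2633 CPM. Sln, which encodes sarcolipin, a regulator of the calcium pump in atrial muscle, was at 0 in all 39 cells.

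Nr2f2 was on average lower in Myl2-high cells, yet was common in them. It ran from 0 to 816 CPM (median 32.4) in Myl2-high cells and from 0 to 1618 CPM (median 275) in Myl2-low cells, with means of 174 and 366 CPM and log2 ratios of -2.03 within C and -0.51 within N530. The log2 ratio of the means, -1.07, was under 2-fold in 8 of the 13 alternative settings and nearest to 0, at -0.47, without the highest cell. At 100 CPM or more Nr2f2 marked 12 of 28 Myl2-high cells (42.9%, 24.5 to 62.8%) and 7 of 11 Myl2-low cells (63.6%, 30.8 to 89.1%). The 12 cells with both Myl2 and Nr2f2 at 100 CPM or more had 108 to 1653 CPM of Myl2 and a median of 4235 genes found, next to 4687 in the other 16 Myl2-high cells and 4482 in Myl2-low cells. A pair of cells caught together would be read as such a cell, and no doublet caller was run on these 39 cells.

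Tbx5 was called higher in Myl2-high cells. It was found in 25 of 28 of them, from 0 to 604 CPM (median 47.5), and in 10 of 11 Myl2-low cells, from 0 to 231 CPM (median 17.5). Its mean ratio was 2.19, with log2 ratios of 0.49 within C and 1.62 within N530, and the groups overlapped throughout. The log2 ratio of the means, 1.11, was under 2-fold in 4 of the 13 settings and lowest, at 0.45, with the Myl2 limit at 200 CPM. Kcnj5, a subunit of the acetylcholine-gated potassium channel, had means of 132 and 24.9 CPM, and its log2 ratio went from 2.36 to 0.51 at that limit. Stard10, a lipid-transfer protein gene, went from -2.74 to -0.86 with counts pooled over cells.

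Genes of the sinus venosus and the pacemaker lineage had higher mean sums in the Myl2-low cells. Of 10 genes, 6 were tested: Tbx18, Isl1, Tbx3, Vsnl1 and Cpne5 were called lower in Myl2-high cells and Bmp4 higher, with a median log2 ratio of -1.51. The summed level was 22.8 to 2108 CPM (median 295) in Myl2-low cells and 0 to 1172 CPM (median 71.4) in Myl2-high cells. The Myl2-high cell had the larger sum in 22.4% of pairs, 8.33% within C and 28.8% within N530. The groups overlapped in both sets. Without the highest cell of each gene the log2 ratios of Isl1 and Vsnl1 fell under 2-fold, at -0.98 and -0.70, and that of Cpne5 turned from -1.48 to 1.22. With all E9.5 cells that of Bmp4 turned from 2.34 to -0.70.

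Tbx18, a T-box factor of sinus horn and epicardial precursors, was the clearest of them by fold. It was found in 5 of 11 Myl2-low cells, at 302, 190, 112, 112 and 35.7 CPM, and in 3 of 28 Myl2-high cells, at 33, 6.0 and 0.7 CPM, with means of 68.2 and 1.42 CPM. Isl1, a LIM factor of second heart field progenitors and the sinoatrial node, was at 775, 132 and 127 CPM in 3 Myl2-low cells and at 176, 74.6, 57.3, 44.6 and 0.6 CPM in 5 Myl2-high cells. Shox2, a homeobox gene required for the sinoatrial node, was found at 26.1 and 13.4 CPM in the same 2 Myl2-low cells of set C that had no count of Myl2 and the 2 highest Isl1 values of the low group. In set N530 it was found in 1 cell, a Myl2-high one, at 155 CPM. Any of Tbx18, Isl1 and Shox2 at 10 CPM or more marked 7 of 11 Myl2-low cells (63.6%, 30.8 to 89.1%) and 6 of 28 Myl2-high cells (21.4%, 8.3 to 41%). The shares of low cells were 2 of 3 in set C and 5 of 8 in set N530, and those of high cells 1 of 8 and 5 of 20. Hcn4, the pacemaker channel gene, was too low to test, with means of 1.83 and 5.16 CPM.

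Tbx3, a repressor of the working chamber programme in the conduction system, was found in 9 of 11 Myl2-low cells (0 to 245 CPM, median 66.2) and in 16 of 28 Myl2-high cells (0 to 156 CPM, median 2.06). The difference in cells found came from set N530, with 8 of 8 against 13 of 20 cells, while set C had 1 of 3 against 3 of 8, medians of 0 and 45.8% of pairs. On the atrioventricular canal list, 5 of 8 genes were tested, with Tbx3, Msx2 and Gjc1 called lower and Bmp2 called higher in Myl2-high cells. Gjc1 encodes connexin 45, the gap junction protein of slowly conducting myocardium. It ran from 0 to 718 CPM (median 61.1) in Myl2-low cells and from 0 to 332 CPM (median 2.04) in Myl2-high cells, with log2 ratios of -0.85 within C and -3.13 within N530. Its 2 highest values, 718 and 664 CPM, were in the Myl2-low cells nearest the limit, with 99.9 and 91.2 CPM of Myl2, and with the limit at 50 CPM the log2 ratio of -2.48 became -0.68, under 2-fold. Bmp2, a ligand made in the canal myocardium, went against the other tested genes of the list, with means of 63.9 CPM in Myl2-high and 5.33 CPM in Myl2-low cells. Its log2 ratio turned from 3.36 to -0.75 with the limit at 200 CPM. Tbx2, on the list but too low to test, was also higher in Myl2-high cells, with means of 11.7 and 2.86 CPM. Msx2, a homeobox gene of the canal, was under 2-fold in 4 of the 13 settings.

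Few of the shared cardiac genes were called. Of 17 tested core cardiac transcription factors, Tbx5 was called higher and Gata6, a zinc finger factor, lower, with a median log2 ratio of -0.05. Gata6 was at 0 to 691 CPM (median 286) in Myl2-low cells and at 0 to 557 CPM (median 42.2) in Myl2-high cells, which had the larger value in 26.0% of pairs. Of 33 tested sarcomere genes, left without those of the rule and Myl2, Acta1, the skeletal actin that the embryonic heart also uses, was called higher and Trim63, a muscle ubiquitin ligase, lower, the last at a log2 ratio of -0.92 with the limit at 200 CPM. The sarcomere sum was 27097 to 85675 CPM (median 49389) in Myl2-high cells and 5784 to 76829 CPM (median 32221) in Myl2-low cells. Mybpc3, cardiac myosin binding protein C, had means of 2128 and 778 CPM, a difference that came from set N530 (log2 1.63), while set C had a log2 ratio of -0.04. On the calcium and ion channel list of 18 tested genes, Pln, Trdn and Kcnj5 were called higher and Tmem38a and Gjc1 lower. Tmem38a, a channel gene of the sarcoplasmic reticulum, was at -0.70 without its highest cell.

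Cell cycle genes were called higher about as often as the background. All 38 listed genes were tested, 11 were called higher (Top2a, Ccna2, Ccne1, Ccne2, Ccnd2, Aurka, Aurkb, Bub1, Pcna, Rrm2 and Cdt1) and 1 lower (Mcm5), with a median log2 ratio of 0.49 and a median share of pairs of 53.2%. Pcna, the sliding clamp of DNA replication, was the most even of these: it was found in 22 of 28 Myl2-high cells (median 70.1 CPM) and in 4 of 11 Myl2-low cells (median 0), with 76.6% of pairs, yet with all E9.5 cells its log2 ratio turned from 1.71 to -0.95. Top2a, which untangles DNA before division, had means of 669 and 144 CPM but medians of 68.2 and 89.9 CPM, so that few cells set its ratio, which was -0.63 on the log2 scale with the limit at 200 CPM. Under an alternative setting the log2 ratio also turned for Aurkb (-1.02), Ccne1 (-0.14), Cdt1 (-1.08 and -0.82), Ccna2 (-0.19) and Rrm2 (-0.14), so that 7 of the 11 called higher changed direction in at least 1 setting. Mcm5, part of the replicative helicase, was at 0 to 1016 CPM (median 55.6) in Myl2-low cells and at 0 to 209 CPM (median 0) in Myl2-high cells. The summed level of the list was 1410 to 18279 CPM (median 6144) in Myl2-high cells and 78.2 to 8626 CPM (median 5381) in Myl2-low cells.

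The metabolic and developmental lists are read against the same background of 23.3% and 8.7%. Of 25 tested respiratory chain or ATP synthase genes, 3 were called higher (Ndufv1, Ndufv2, Uqcrc2) and 1 lower (Sdha). Of 17 glycolytic genes 1 was called higher (Slc2a3, a glucose transporter), and of 9 fatty acid oxidation genes 2 were higher (Cpt2, Hadha) and 1 lower (Acadl). Of these, Uqcrc2 was under 2-fold in 6, Sdha in 3 and Acadl in 9 of the 13 settings, and Acadl turned to a log2 ratio of 0.0097 without its highest cell. Of 11 genes of the early embryo, Lin28a and Lin28b, which encode RNA-binding repressors of let-7, were called higher, with Lin28a found in 14 of 28 and 3 of 11 cells and means of 52.8 and 4.84 CPM. Of 20 signalling genes, Bmp2, Bmp4 and Hey2 were called higher and Jag1, a Notch ligand, lower. Jag1 had medians of 421 CPM in Myl2-high and 1343 CPM in Myl2-low cells, with log2 ratios of -2.05 within C and -0.31 within N530, and was under 2-fold in 6 of the 13 settings. Of 8 tested second heart field and outflow genes 1 was called higher and 2 lower, of 9 trabecular genes 1 was higher (Cited1), of 7 compact layer genes 2 were higher (Hey2, Ccnd2), and none of 7 smooth muscle or 2 retinoic acid pathway genes was called.

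Some defining markers of other cell types were at 0 in all cells and others were found. Of 12 endothelial genes, Pecam1, Cdh5, Tie1, Emcn, Eng and Plvap were at 0 in all 39 cells, while Kdr was found in 9 of 28 Myl2-high and 2 of 11 Myl2-low cells and called higher. The summed endothelial level was 0 to 1570 CPM in Myl2-high and 0 to 850 CPM in Myl2-low cells. Of 8 epicardial genes, Upk3b, Bnc1, Sema3d and Aldh1a2 were at 0 throughout, Wt1 was called higher and Tbx18 lower, and the sums were 0 to 2696 and 0 to 459 CPM. Of 10 mesenchymal genes, Postn, Dcn and Lum were at 0, Pdgfra was called higher, and the sums, mostly Vcan, were 56.1 to 4084 CPM (median 1482) and 29.5 to 3125 CPM (median 1221). Pdgfra turned to a log2 ratio of -3.57 with the limit at 200 CPM, and Wt1 to -1.21 without its highest cell. Erythroid genes summed to at most 2.12 CPM in Myl2-high cells and to 258 CPM in 1 Myl2-low cell, neural genes to at most 0.2 CPM in any cell, and leukocyte genes, all of it Lyz2, to means of 29.2 CPM in Myl2-high and 33.5 CPM in Myl2-low cells, with Ptprc, the pan-leukocyte gene, at 0. Of 8 tested genes of the stress of dissociation, Fos and Atf3 were called higher in Myl2-high cells, with sums of 0 to 5801 and 64.6 to 2054 CPM. Fos was under 2-fold in 8 of the 13 settings and turned in 2 of them, to -0.099 and -0.22 on the log2 scale, and Atf3 was at 0.42 as a difference of mean log2 values. Of 4 tested sex-linked genes, the Y-linked Ddx3y and Uty were called higher, with Ddx3y at a log2 ratio of -0.086 with all E9.5 cells. The part of these differences in the results was not tested.

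Among all genes called, whether on a list or not, those with the largest ratios that also held over 70% or more of cell pairs were taken. The 12 with the largest ratio in Myl2-high cells were Dennd1b, Stk38, Snx12, Bcam, Odf2, Slc25a39, Tet1, Cnot7, Slc25a24, Xpo6, Cpt2 and Pitpnb. Stk38, an NDR family kinase, was found in 21 of 28 Myl2-high cells (0 to 1456 CPM, median 11.8) and in 4 of 11 Myl2-low cells (0 to 5.72 CPM). Odf2, a protein of the centriole's appendages, was at 0 to 1754 CPM (median 39.7) and 0 to 36.2 CPM. Tet1, an enzyme of DNA demethylation, was at 0 to 1652 CPM (median 26.8) and 0 to 71.5 CPM. Bcam, a laminin receptor, was at 0 to 1211 CPM (median 4.45) and 0 to 18.7 CPM. With the limit at 200 CPM the log2 ratios of Tet1 and Bcam turned to -0.59 and -0.17, and those of Slc25a39, Cnot7 and Slc25a24 were under 2-fold. All 4 described were at 0 in some Myl2-high cells, so that their groups overlapped.

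The 12 with the largest ratio in Myl2-low cells were Psmd3, Sfrp1, Fchsd2, Ptpn9, Safb2, Gyk, Zfp157, Metap1, Mcm5, Rap1gds1, Rev3l and Cflar. Sfrp1, a secreted Wnt antagonist, was found in 8 of 11 Myl2-low cells (0 to 864 CPM, median 0.43) and in 8 of 28 Myl2-high cells (0 to 212 CPM, median 0), and its log2 ratio went from -4.05 to -0.32 with the limit at 50 CPM. Psmd3, a proteasome subunit, was at 0 to 1368 CPM (median 27.7) and 0 to 99.4 CPM. Cflar, an inhibitor of caspase-8, was at 0 to 499 CPM (median 1.94) and 0 to 186 CPM, and Metap1, a methionine aminopeptidase, was at 0 to 673 CPM (median 109) and 0 to 158 CPM. The medians of Sfrp1 and Cflar in Myl2-low cells were near 0, while that of Metap1 was not.

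Over the 39 cells the genes whose CPM ranked most like Myl2 were Odf2 (Spearman rho 0.61), Doc2g (0.59), Macrod2 (0.56), Idh3g (0.55), Tmem51 (0.55), Mpped2 (0.55), Stk38 (0.53), Actl6a (0.52), Snhg3 (0.52) and Pln (0.52). They were chosen for this rho over the same cells. For Pln it was 0.83 within C and 0.32 within N530. For comparison, Myl3 had a rho of 0.49, Irx4 of 0.35 and Nr2f2 of -0.32. These are descriptions over single cells, which differ in depth between and within the sets.

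At E12.5 the same split gave wider differences in the chamber genes than over all E9.5 cells. The ventricular sum without Myl2 was 1199 to 11476 CPM in Myl2-high and 87.7 to 710 CPM in Myl2-low cells, without overlap, and the log2 ratio of its mean was 4.50 beside 0.91 at E9.5. Set C, to which 20 of the 29 E12.5 cells belong by title only, had a log2 ratio of 2.91 at E9.5, there too without overlap. Myl3, which is part of the ventricular sum, had medians of 5031 and 12.0 CPM, Myh7 of 2274 and 32.6 CPM, and Pln of 1156 and 5.1 CPM. Hey2 was found in 16 of 22 Myl2-high cells and in 0 of 7 Myl2-low cells, which allows a share of up to 3 of 7 cells (42.9%). Nr2f2 was at 100 CPM or more in 7 of 7 Myl2-low cells and in 3 of 22 Myl2-high cells (13.6%, 2.9 to 34.9%), next to 12 of 28 at E9.5. The atrial sum was 17168 to 26710 CPM in the Myl2-low cells (median 21879) and 837 to 50058 CPM in the Myl2-high cells (median 5530). The sinus venosus sum had medians of 1187 CPM in Myl2-low and 37 CPM in Myl2-high cells, with Vsnl1, a calcium sensor gene, at means of 877 and 56.6 CPM.

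**Figure D4:**
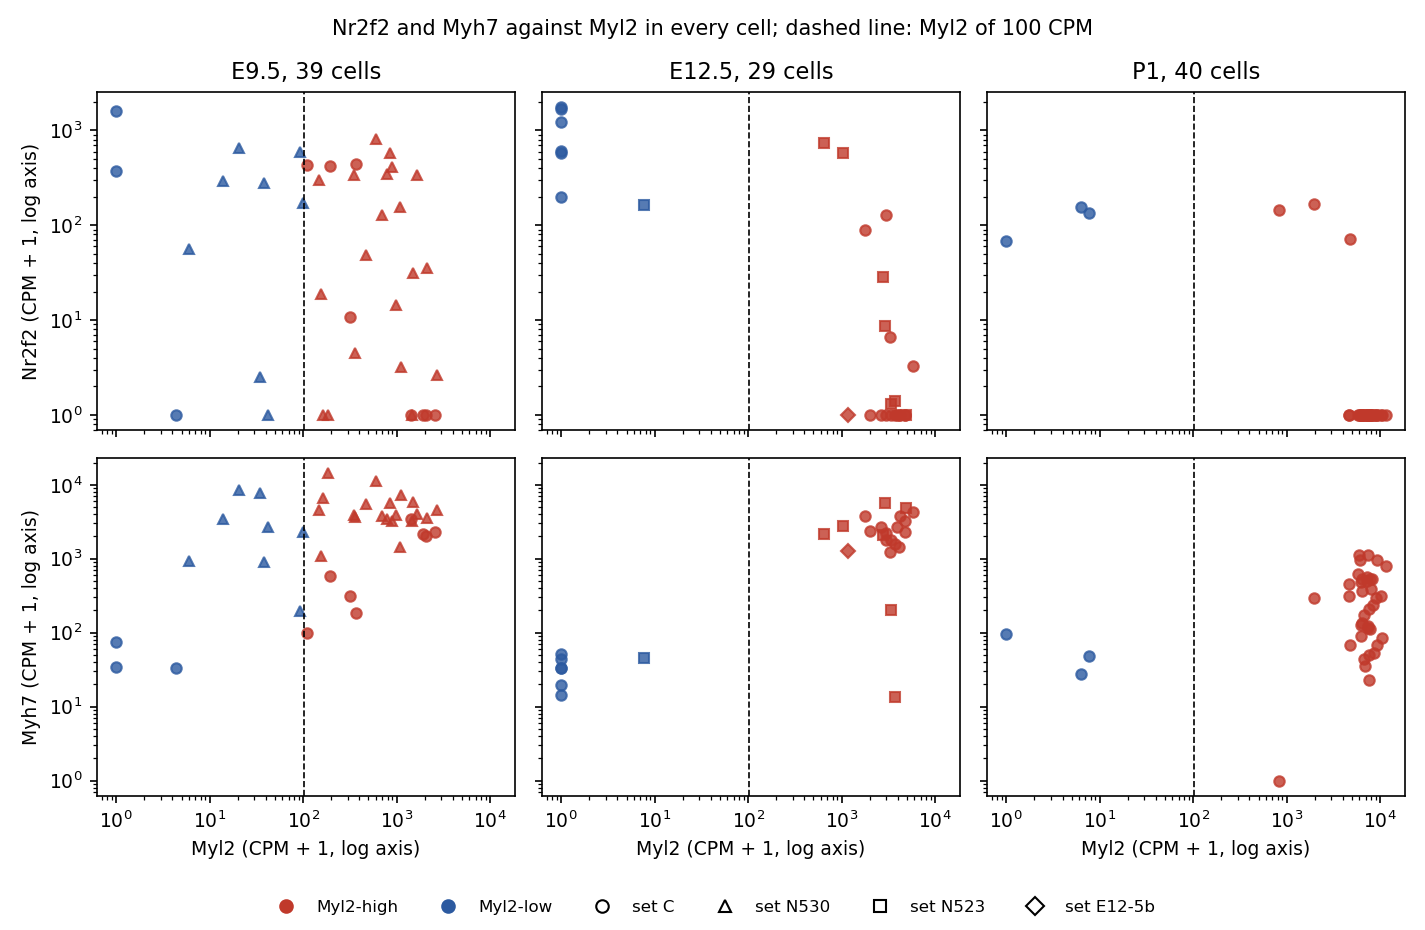
Nr2f2 (top) and Myh7 (bottom) against Myl2 in every cell at E9.5, E12.5 and P1, in CPM + 1 on log axes; colour gives the group, the symbol the naming set, and the dashed line the limit of 100 CPM of Myl2. Cells with both Myl2 and Nr2f2 at 100 CPM or more number 12 of 28 Myl2-high cells at E9.5, 3 of 22 at E12.5 and 2 of 37 at P1.

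Tbx5 had the opposite ratio later. At E12.5 its mean was 26.5 CPM in Myl2-high and 317 CPM in Myl2-low cells, and at P1 it was 23.8 and 461 CPM, against 111 and 50.9 CPM at E9.5. Myl7, level between the groups at E9.5, had medians of 2553 and 14054 CPM at E12.5 and of 288 and 20258 CPM at P1. Nppa, at similar means at E9.5, had medians of 47.3 CPM in Myl2-high and 0 CPM in Myl2-low cells at E12.5. At P1 it went the other way, with medians of 16.9 CPM in 37 Myl2-high and 69474 CPM in 3 Myl2-low cells. At E12.5 Tbx18 was found in 10 of 22 Myl2-high and 4 of 7 Myl2-low cells, with means of 70.7 and 111 CPM, medians of 0 and 49.2 CPM and the larger value in the Myl2-high cell in 39.6% of pairs, the direction of E9.5 at a log2 ratio of -0.65. Gjc1 had means of 68.6 and 24 CPM there, the opposite direction. At P1, Isl1, Shox2 and Tbx3 were at 0 in all 40 cells. The sinus venosus sum there was 0 in all 3 Myl2-low cells and 0 to 372 CPM (median 0) in the 37 Myl2-high cells. Tbx18 had means of 21.9 CPM in Myl2-high and 0 CPM in Myl2-low cells at P1, the opposite direction to E9.5. The 7 Myl2-low cells of E12.5 were 6 of set C and 1 of set N523, and the 3 of P1 all belonged to set C.

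Genes called higher at E9.5 had that direction later about as often as all genes did. Of 1408 genes called higher at E9.5 and measured at E12.5, 59.4% had a ratio above 1 there, next to 58.3% of all 6517 genes. Of 550 genes called lower, 49.5% had a ratio below 1, next to 41.7% of all. At P1 the shares were 72% beside 70.4% and 28.4% beside 29.6%.

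**Figure D5:**
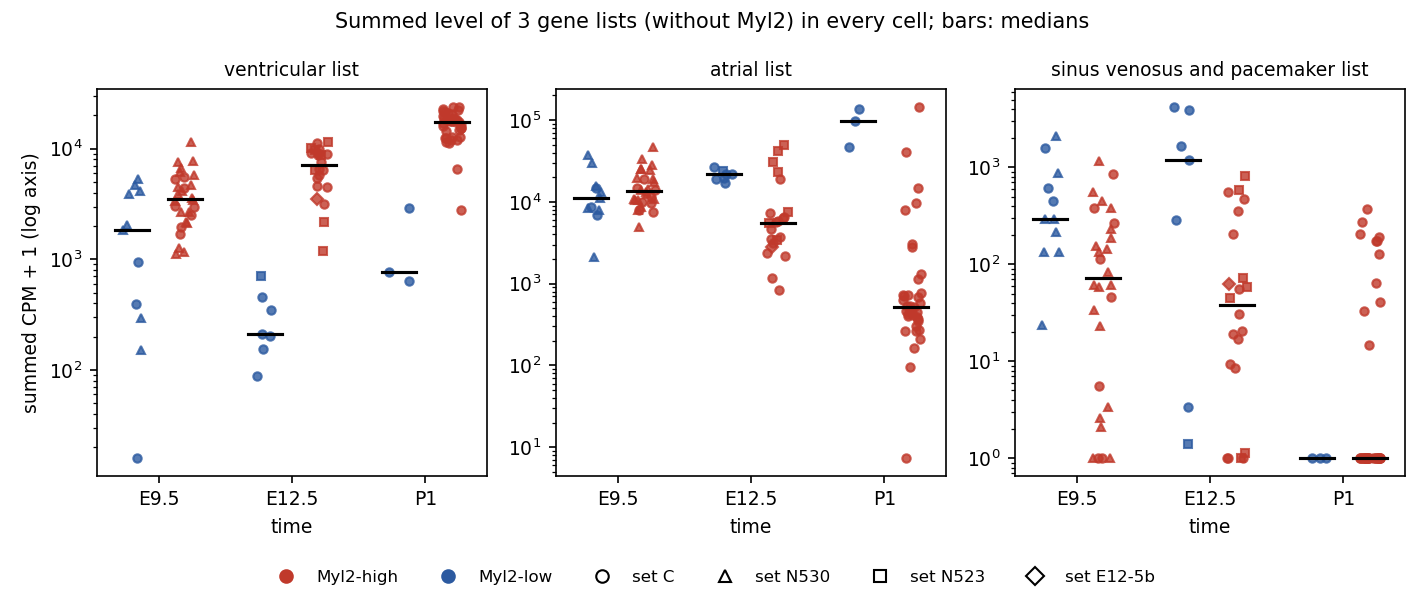
Summed CPM + 1 on a log axis of the ventricular (without Myl2), atrial, and sinus venosus and pacemaker lists in every Myl2-low and Myl2-high cell at E9.5, E12.5 and P1; bars are medians, colour gives the group and the symbol the naming set. The ventricular medians are 1853 and 3518 CPM at E9.5, with overlap in set N530 but not in set C (medians 397 and 3006 CPM), and 209 and 7070 CPM at E12.5, without overlap. At E9.5 Myl3 makes up most of the ventricular sum.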

How the data were processed

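The authors sorted GFP+ cells from digested hearts, amplified their RNA with the SMART-Seq V4 kit on Fluidigm C1 chips and deposited a table of read counts, unnormalized and listed by gene symbol, with 1 column per cell (OLego alignment and featureCounts, builds GRCm38 and mm10 in the submitters' processing notes). The authors' deposited TPM table was used only as an alternative. CPM are counts per 1000000 of a cell's total. Reads carry no molecular identifiers, so intervals (exact Clopper-Pearson, 95%) cover counting error only. Beside a share of 0, the limit is 3 cells of the total. Cells at E12.5 and P1 needed 2000 genes found. No 2 cells had identical counts.

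The limit, the gene lists and the markers were chosen with earlier results of these data known. Cells are not replicates, and no test was run. Named genes are the 5 markers (Myl2, Irx4, Hey2, Nr2f2, Tbx5), members of the 26 lists, and in each direction the 12 called genes with the largest ratio at 50 CPM or more in the higher group, found in 60% of its cells and with 70% of pairs (74 and 40 passed). Of those, 5 and 1 without a gene name were passed over. The 10 genes most like Myl2 were taken by Spearman rho. Python 3.11.15, numpy 2.4.6, pandas 2.3.3, scipy 1.17.1 and, for TMM factors, edgeR 4.0.16 in R 4.3.3 were used. As a check of the code, the comparison was run on simulated counts with 200 genes changed 8-fold. These counts held no difference between the naming sets other than depth, so the check gives no error rate for these data. Gene positions are from GENCODE on GRCm38. The number of animals is not given in the sources used here.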

Additional observations from a re-analysis of the deposited data

Results flagged for a closer look

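Among the 8 Myl2-low cells of set N530, 1 cell stood far from the others for each of the 2 ventricular transcription factors. Irx4 was at 211 CPM in a cell with 99.9 CPM of Myl2, the value just under the limit, and the next cell held 1.59 CPM. Hey2 was at 161 CPM in another cell, with 36.9 CPM of Myl2, and the next cell held 1.75 CPM. Of 10 such checks of a marker in a group and set, about 1 in 20 passes by chance under a normal spread, and sparse counts are not normal.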

How the results depend on the processing

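The calls of 1808 genes higher and 676 lower rest on 11 Myl2-low cells, 3 of them in set C, and on means that 1 cell can set. Without the cell with the most CPM of each gene, 242 genes were called lower (and 1246 higher). Within set C alone (8 and 3 cells, 6627 genes tested) 1421 genes were called lower and within N530 alone (20 and 8 cells, 7258 genes) 1592; cells, genes tested and sign rule change together there. Every other planned setting left both counts within 1.5 times. Leaving out each cell in turn, chosen after seeing the data, gave 1729 to 1988 genes higher and 559 to 709 lower. The log2 ratio of the ventricular sum, 0.91, was 2.91 in set C alone, 0.62 in set N530 alone and 0.77 to 1.14 without 1 cell. That of the sinus venosus sum, -1.66, was -2.12 at a Myl2 limit of 200 CPM, -2.94 as a difference of mean log2 values, and -1.96 to -1.25 without 1 cell. That of the atrial sum, 0.18, was 0.23 at a limit of 50 CPM, 0.21 with counts pooled over cells, 0.35 as a difference of mean log2 values, 0.13 with TMM factors, 0.22 from TPM, 0.21 in set C, 0.51 with all cells labelled E9.5, 0.065 at 10000 CPM of the 4 genes and 0.065 (without cell 30, the one at 1564 CPM of them) to 0.44 (without cell 20, a Myl2-low one) without 1 cell. Of 1189 alternatives for single genes and shares, 972 stayed within the spread between the sets, 196 moved beyond it and 21 turned a called gene's sign. That spread is wide, since the ratios of the 2 sets were unrelated, so staying within it does not show a steady ratio. Nr2f2 stayed within it in all 15 alternatives, yet was under 2-fold in 8 of 13 settings. Of 75 called genes, 46 fell under 2-fold in at least 1 of 13 settings. The log2 ratio turned, at a limit of 200 CPM, for Hey2 (-1.10), Irx1 (-2.01), Bmp2 (-0.75), Top2a (-0.63), Aurkb (-1.02), Pdgfra (-3.57), Fos (-0.099), Bcam (-0.17) and Tet1 (-0.59). As a difference of mean log2 values it turned for Ccne1 (-0.14), Cdt1 (-1.08) and Fos (-0.22), and with all E9.5 cells for Bmp4 (-0.70), Pcna (-0.95), Rrm2 (-0.14) and Ddx3y (-0.086). Without the top cell of each gene it turned for Cpne5 (1.22), Ccna2 (-0.19), Cdt1 (-0.82), Acadl (0.0097) and Wt1 (-1.21). Of genes not called, Nppa turned to -0.21 without its top cell and Irx4 to -0.04 within N530. From TPM, 33 cells had Myl2 at 100 or more in place of 28. The causes were not tested.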
